A study of Rattus norvegicus with 12 samples.

Results

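The genes described here build the nuclear pore and carry proteins and RNA through it. They are the probe sets of 1 annotated symbol starting with Nup, Kpn or Tnpo, or with Ipo or Xpo and a digit, together with Ran, Ranbp1, Ranbp2, Rangap1, Cse1l and Tpr, each gene read by its brightest probe set. This gave 47 of the 14506 named genes on the array, read by 48 of 29214 probe sets. Of the 47, 44 belong to role lists of pore and transport genes, and 3 are outside them. Nupr1 and Nupr2 share only the first letters of the symbol and encode nuclear proteins that are not nucleoporins, and Nup50-ps1 is by its symbol a pseudogene. Of 55 symbols in the role lists, 11 had no row of 1 symbol. Among them, Nupl1 and Nupl2 are older symbols of Nup58 and Nup42, which were measured, while Nup133, Nup214, Ipo5 and Rcc1 were not analysed here.

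The arrays held RNA of the whole ganglionic eminences, medial and lateral, of single rat embryos at embryonic day 14. The 6 homozygous embryos carried the BACHD transgene, a bacterial artificial chromosome with the entire human huntingtin gene and 96 CAG repeats, and the 6 wild-type embryos did not. All embryos came from 3 dams dissected on 1 day, and neither the dam nor the sex of an embryo was given. Values are log2 intensities, and differences are homozygous minus wild type. The brightness of a probe set depends on its probes, so levels of different genes are not ranked.

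Nuclear pores are rings of many copies of nucleoporins. A scaffold of Y complexes and inner rings holds phenylalanine-glycine (FG) nucleoporins, whose flexible repeats fill the channel and bind passing receptors. Importins load cargo in the cytoplasm and exportins in the nucleus, and the small GTPase Ran sets the direction, bound to GTP in the nucleus and to GDP outside. Disturbed nuclear transport has been described in models of Huntington's disease, and the Ran regulator RanGAP1 and the nucleoporin Nup62 have been found in huntingtin aggregates. Dividing progenitors, which fill the eminences at this age, take the pores apart and rebuild them at each mitosis.

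The array medians lay between 7.69 and 7.76 in homozygous and between 7.67 and 7.71 in wild-type arrays. Wild type 1 and 2 stood apart from the other arrays in many genes, so differences of the genes in which they lay outside all other arrays are also given without them. The rat gene Htt was read as a check of the labels, although whether its probes also bind transgene transcripts was not tested. It had 10.16, 10.25 and 10.40 as lowest, median and highest value in homozygous embryos. In wild-type embryos Htt had 9.77, 10.003 and 10.07. The groups did not overlap, and Htt was higher by 0.30 ± 0.0556 (SE, n = 6 each; adjusted p = 0.0408 in limma). The call was lost in 11 of 12 fits that left out 1 array. The 9 measured eminence markers averaged 11.15 in both groups, and none passed. Of them 4 lay below 0 and 5 above, so the equal means do not show that each marker was equal. Nkx2-1 stood at 0.16 ± 0.0403 with groups that did not overlap (adjusted p = 0.108 in limma). Dlx5 stood at -0.18 ± 0.0804 (adjusted p = 0.321). All 5 choroid plexus and roof plate markers lay below the array medians.

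One of the 47 genes changed. Nup37, a subunit of the Y complex, was lower in homozygous embryos, and 46 genes did not pass an adjusted p of 0.05. Among all named genes 0.469% passed and 0.269% passed as lower, and among all probe sets 0.424% passed. Nup37 was also the 1 gene of the 47 whose groups did not overlap, against 2.2% of named genes. An unadjusted p under 0.05 was found for 11 of the 47 genes, or 23.4%, against 15.1% of named genes. Of these, 6 were lower and 5 higher, or 12.8% and 10.6% of the 47, against 5.93% and 9.18% of named genes. Differences lay below 0 for 24 of the 47, or 51.1%, against 38.6% of named genes. The median difference of the 47 was 0.00, against 0.02 for named genes. It moved to -0.04 with arrays centred on their medians, under which 35 of the 47 rather than 24 lay below 0. There 14 lower and 1 higher gene had an unadjusted p under 0.05. Centring lowered differences over the whole table, and the median of all probe sets moved from 0.03 to -0.01. Calls over all probe sets were then 35 higher and 267 lower, against 66 and 58 before. The shares of named genes under centring were not counted here.

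**Figure D1:**
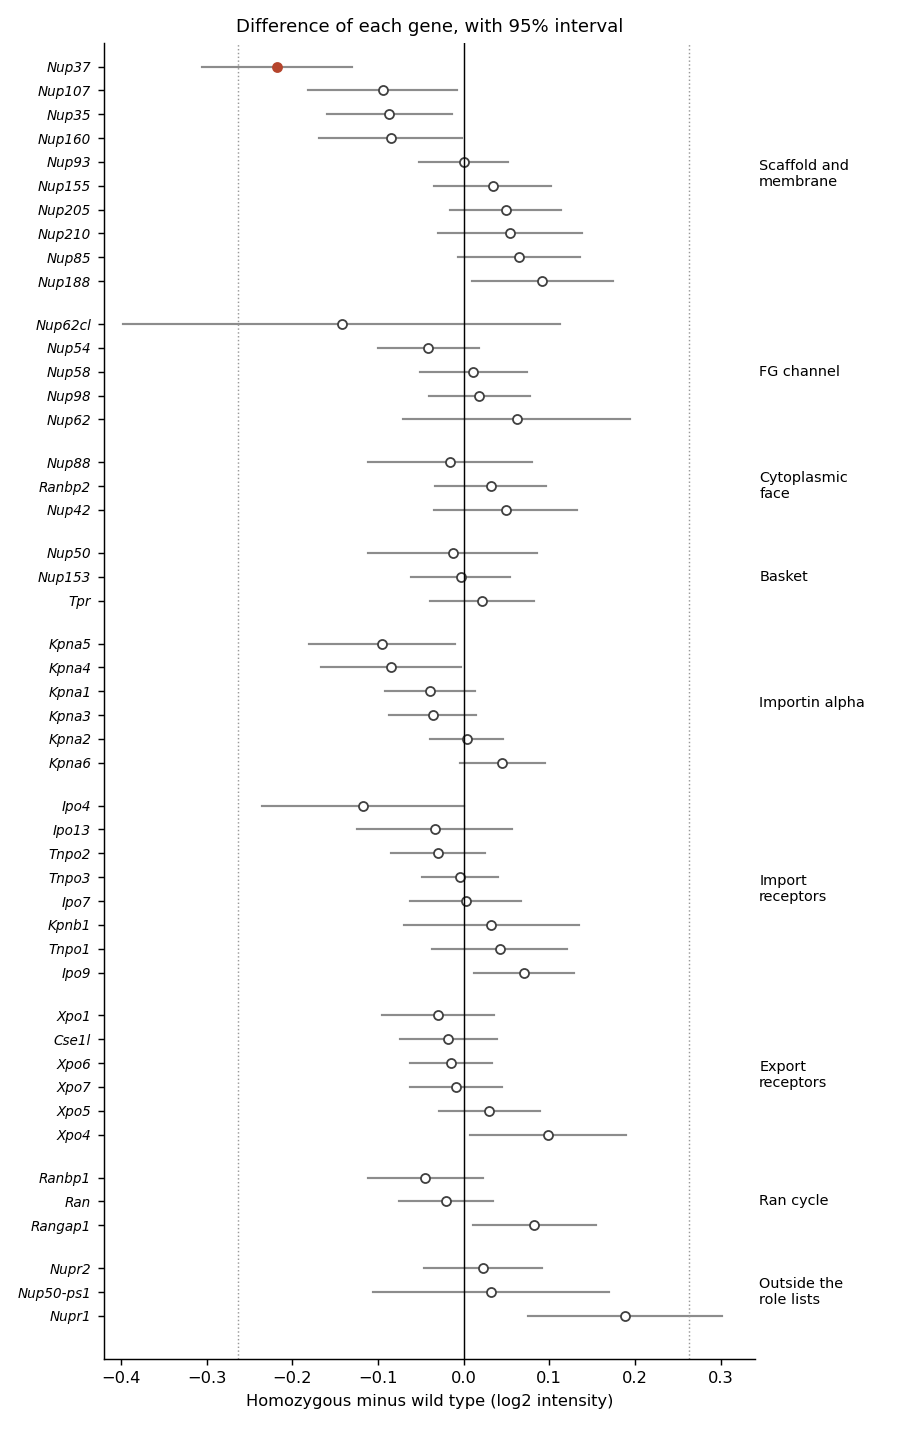
Difference of each of the 47 genes (homozygous minus wild type, log2 intensity, points) with its 95% confidence interval (bars), grouped by role, 6 embryos per group. The filled point marks Nup37, which passed an adjusted p of 0.05, and dotted lines mark a 1.2-fold change; the intervals of Nup37, Nup62cl and Nupr1 cross one of them.

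Most genes were measured closely enough to bound their change in the values as deposited, with embryos taken as independent. The 95% interval, not adjusted for the number of genes, lay within a 1.2-fold change in either direction for 44 of the 47, against 86.7% of named genes. It lay within a 1.1-fold change for 32, or 68.1%, against 32.4% of named genes. The 3 with wider limits were Nup37, Nup62cl and Nupr1. The SD within groups had a median of 0.0522 over the 47 and of 0.0885 over named genes. Nupr1, Nup62cl and Nup50-ps1 were the 3 genes dimmer than the array medians. Named genes were not matched to the 47 by brightness in these comparisons. Intervals with centred arrays were not counted, and there the median difference of the 47 was -0.04.

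Nup37 is a peripheral subunit of the Y complex, the scaffold unit that stacks into the outer rings. It had 9.33, 9.44 and 9.51 as lowest, median and highest value in homozygous embryos, against 9.53, 9.65 and 9.74 in wild-type embryos. Every homozygous value lay below every wild-type value, although the highest of the one and the lowest of the other, wild type 3, were close. The means were 9.43 ± 0.0664 and 9.65 ± 0.0721 (SD, n = 6 each), homozygous first. Nup37 thus fell by 0.22 ± 0.0410 (SE), or 14.0%, with a 95% interval of 0.809-fold to 0.914-fold (adjusted p = 0.0408 in limma). The exact permutation p for Nup37 alone was 0.00216 (2-sided), the smallest that 924 assignments of 6 and 6 can give. Any gene whose groups do not overlap has this p. Nup37 was picked by these same values, so this p adds no separate support.

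The size of this fall was steadier than its call. With 1 array left out, the difference ranged from -0.24 to -0.20, and the adjusted p from 0.0289 to 0.1001. It passed without wild type 3 (0.0289) or homozygous 6 (0.0493). It did not pass without wild type 1 (0.0603), 2 (0.0602), 4 (0.0727), 5 (0.0811) or 6 (0.0864), nor without homozygous 1 (0.0735), 2 (0.0841), 3 (0.1001), 4 (0.0852) or 5 (0.0771). Without wild type 1 and 2 together it stood at -0.22 (adjusted p = 0.0350).

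The promoter of Nup37 is shown because Nup37 is the gene that changed, and that of Nup188 because this inner ring subunit had an unadjusted p under 0.05 in the other direction and also has a close neighbour on the opposite strand. Both are from RefSeq on GRCr8, plus strand, 250 bases before the listed start and 50 after it, at chr7:24460982-24461281 and chr3:33957562-33957861. Capitals mark matches on either strand to CCAAT, the CCAAT box, to GGGCGG, the GC box, to CACGTG, an E-box, to TATAAA, the TATA box, or to CCGGAAGT, an ETS motif. None of these letters contains another of the motifs.
Nup37: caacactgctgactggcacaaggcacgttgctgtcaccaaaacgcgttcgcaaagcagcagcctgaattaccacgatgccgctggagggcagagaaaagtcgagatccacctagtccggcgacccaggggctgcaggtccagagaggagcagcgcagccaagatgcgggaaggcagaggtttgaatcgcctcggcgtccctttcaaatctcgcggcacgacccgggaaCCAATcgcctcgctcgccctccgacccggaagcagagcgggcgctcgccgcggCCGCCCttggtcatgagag
Nup188: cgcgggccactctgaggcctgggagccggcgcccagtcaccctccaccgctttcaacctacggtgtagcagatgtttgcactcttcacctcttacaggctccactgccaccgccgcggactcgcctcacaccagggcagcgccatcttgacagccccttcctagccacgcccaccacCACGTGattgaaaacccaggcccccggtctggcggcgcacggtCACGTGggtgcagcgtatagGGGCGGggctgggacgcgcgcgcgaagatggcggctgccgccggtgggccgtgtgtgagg
The listed start is base 251 in both. The window of Nup37 held 1 CCAAT and 1 GGGCGG match and 29 CG pairs, and that of Nup188 held 2 CACGTG and 1 GGGCGG match and 29 CG pairs. The same letters are common in promoters of this length. Over the 41 of the 47 genes with an entry, CCAAT was found in 48.8%, GGGCGG in 68.3%, CACGTG in 19.5%, TATAAA in 4.88% and CCGGAAGT in 9.76%. Over all 27457 promoters in the table the shares were 37.7%, 34.9%, 6.65%, 14.3% and 4.01%, and over the 11951 of named genes 38.3%, 50.2%, 7.88%, 11.7% and 5.93%. The median number of CG pairs was 25 over the 41, 16 over named genes and 7 over all.

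Parpbp, which encodes an inhibitor of homologous recombination, starts on the opposite strand at base 175 of the Nup37 window, 76 bases upstream of the Nup37 start and reading away from it. Parpbp had 8.81, 8.98 and 9.03 as lowest, median and highest value in homozygous embryos, against 8.74, 8.94 and 9.07 in wild-type embryos. The groups overlapped almost entirely, with a difference of 0.04 ± 0.0550 (adjusted p = 0.743 in limma) and a 95% interval from -0.08 to 0.16 that does not reach the difference of Nup37. Dolk, the dolichol kinase gene, starts 132 bases upstream of Nup188 in the same arrangement and stood at 0.05 ± 0.0716 (adjusted p = 0.772). Of the 41 genes, 10 (24.4%) had a promoter window overlapping one on the opposite strand, against 10.8% of named genes. Of their partners 7 were measured and none passed, the lowest adjusted p being 0.231, for Trmt2a beside Ranbp1.

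The other measured subunits of the Y complex did not pass. Nup107 had 9.26, 9.29 and 9.38 in homozygous and 9.28, 9.40 and 9.51 in wild-type embryos, a difference of -0.09 ± 0.0407 (adjusted p = 0.297). Nup160, to which Nup37 binds, had 10.15, 10.20 and 10.25 in homozygous and 10.14, 10.31 and 10.40 in wild-type embryos (-0.08 ± 0.0389, adjusted p = 0.326). In both the wild-type values covered the whole homozygous range, or nearly so, with wild type 1 the lowest wild-type array. Nup85, of the short arm, stood at 0.06 ± 0.0332 (adjusted p = 0.372). Sec13, a subunit shared with the coat of vesicles leaving the endoplasmic reticulum, is outside the symbol rule and stood at 0.05 ± 0.0299 (adjusted p = 0.461). The 5 genes counted here as the Y complex thus lay on both sides of 0, with 3 below and 2 above. Nup98 was counted with the FG channel genes and is not among the 5. All 3 below, Nup37 among them, had an unadjusted p under 0.05 (60.0% of 5, against 5.93% of named genes), and neither above did. Nup37 was picked by these same values and counts in this share, so the share is no test of the complex. Without wild type 1 and 2, Nup107 stood at -0.14 (adjusted p = 0.0641 in limma), Nup160 at -0.11 (0.1126) and Nup85 at 0.07 (0.405).

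**Figure D2:**
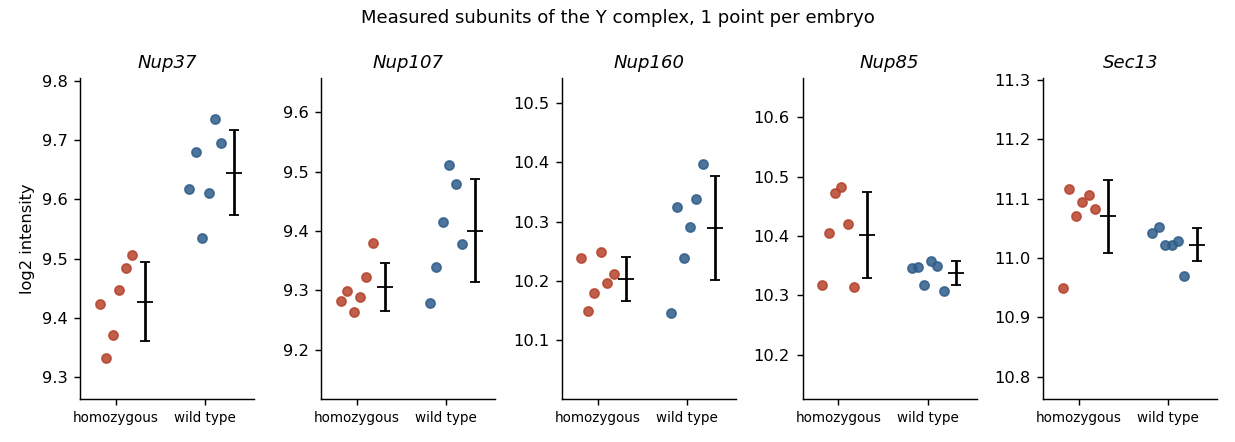
Log2 intensity of 5 Y complex genes in each embryo (points; homozygous left, wild type right), with mean and SD (bars), n = 6 per group; the axes differ in level and have the same span. The groups are apart for Nup37, at 9.33 to 9.51 against 9.53 to 9.74, and overlap for the other 4.

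Inner ring and membrane genes did not pass. Nup35, an inner ring protein that binds membrane, had 11.20, 11.27 and 11.30 in homozygous and 11.22, 11.36 and 11.45 in wild-type embryos, a difference of -0.09 ± 0.0342 (adjusted p = 0.260). Wild type 1, at 11.22, was the 1 wild-type array among the homozygous values. Nup188 had 10.28, 10.38 and 10.39 in homozygous and 10.14, 10.29 and 10.37 in wild-type embryos (0.09 ± 0.0385, adjusted p = 0.286). Wild type 1 and 2 were its lowest arrays, and its difference was 0.04 ± 0.0291 without them and 0.05 ± 0.0394 with centred arrays. Nup93, which anchors the other inner ring subunits, stood at 0.00 ± 0.0242, with a 95% interval of 0.965-fold to 1.04-fold. Nup155 (0.03 ± 0.0320), Nup205 (0.05 ± 0.0302) and the membrane glycoprotein gene Nup210 (0.05 ± 0.0392) had adjusted p between 0.452 and 0.6252. Of the 10 scaffold and membrane genes 5 lay below 0 and 5 above. An unadjusted p under 0.05 was found for 5 of the 10, against 15.1% of named genes. With such a p, 4 of the 10 were lower and 1 was higher, against 5.93% and 9.18% of named genes. Nup37, Nup107 and Nup160 are among the 4, so this count is not separate from that of the Y complex. Nup37 was picked by these same values, so the count is no test of the scaffold.

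None of the 5 genes of the FG channel passed. Nup62, the central channel FG protein, had 11.03, 11.07 and 11.14 in homozygous and 10.86, 10.93 and 11.24 in wild-type embryos, with wild type 1 and 2 above and wild type 3 to 6 below every homozygous value. Over all arrays Nup62 differed by 0.06 ± 0.0619 (adjusted p = 0.646). Its channel partners Nup54 and Nup58 stood at -0.04 ± 0.0273 and 0.01 ± 0.0292, and Nup98, a mobile FG protein, at 0.02 ± 0.0276. Nup62cl, a dim gene related to the end of Nup62, had the widest range of the 47, from 6.13 to 6.50 in homozygous and from 6.07 to 6.94 in wild-type embryos (-0.14 ± 0.119, adjusted p = 0.580).

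The cytoplasmic face and the nuclear basket showed the same absence of calls. Ranbp2, the large filament protein that holds SUMO-modified RanGAP1 at the pore, stood at 0.03 ± 0.0303, and Nup42 and Nup88, which act in RNA export and in anchoring export factors, at 0.05 ± 0.0390 and -0.02 ± 0.0446 (adjusted p between 0.558 and 0.878). In the basket, Tpr, its main filament, differed by 0.02 ± 0.0285, Nup50, a helper of importin recycling, by -0.01 ± 0.0460, and Nup153 by 0.00 ± 0.0270 (adjusted p between 0.733 and 0.963). The 95% intervals of all 3 basket genes and all 3 cytoplasmic genes lay within a 1.1-fold change.

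Importin alpha proteins read classical localization signals and hand the cargo to importin beta. None of the 6 measured genes passed, and 4 lay below 0. Kpna5 had 9.91, 10.01 and 10.07 in homozygous and 9.997, 10.09 and 10.24 in wild-type embryos (-0.10 ± 0.0398, adjusted p = 0.285). Kpna4 had 11.19, 11.33 and 11.41 in homozygous and 11.33, 11.41 and 11.48 in wild-type embryos (-0.08 ± 0.0381, adjusted p = 0.316). The groups overlapped in both, and in Kpna4 the lowest value, of homozygous 2, lay well under the rest. Kpna1 and Kpna3 stood at -0.04 each, with SE of 0.0245 and 0.0237, and Kpna6 at 0.04 ± 0.0231.

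Kpna2, the importin alpha of dividing cells and the brightest of the 47, is the 1 gene read by a pair of probe sets. They differed from each other by at most 0.0136 in any of the 12 arrays. By the brighter, it had 12.60, 12.65 and 12.67 in homozygous and 12.61, 12.63 and 12.69 in wild-type embryos. The difference of 0.00 ± 0.0200 had a 95% interval of 0.973-fold to 1.03-fold.

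Among the 8 import receptors none passed, with 4 below 0 and 4 above. Ipo9, an importer of histones, had 11.89, 11.94 and 11.98 in homozygous and 11.77, 11.89 and 11.92 in wild-type embryos (0.07 ± 0.0273, adjusted p = 0.254). Its difference was 0.04 ± 0.0212 without wild type 1 and 2 and 0.03 ± 0.0298 with centred arrays. Ipo4, another importer of histones, had 9.97, 10.01 and 10.03 in homozygous and 9.95, 10.10 and 10.38 in wild-type embryos (-0.12 ± 0.0549, adjusted p = 0.334). Its homozygous values were tightly spaced, and wild type 2 at 10.38 and wild type 1 at 10.16 were the highest. Without both, the difference was -0.04 ± 0.0334. Kpnb1, importin beta itself, stood at 0.03 ± 0.0475 (adjusted p = 0.760), with wild type 1 and 2 at 11.30 and 11.31 below all other arrays, and at -0.04 ± 0.0261 without them. Tnpo1, Tnpo2 and Tnpo3, which import RNA-binding proteins, and Ipo7 and Ipo13 lay between -0.03 and 0.04, with adjusted p of 0.586 or more.

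None of the 6 export receptors passed. Xpo4, which carries the translation factor eIF5A, had 10.61, 10.68 and 10.78 in homozygous and 10.50, 10.59 and 10.74 in wild-type embryos (0.10 ± 0.0424, adjusted p = 0.297), and the groups overlapped. Xpo5, the exporter of microRNA precursors, was close to constant in homozygous embryos at 11.13, 11.14 and 11.15, against 11.03, 11.11 and 11.19 in wild-type embryos (0.03 ± 0.0275, adjusted p = 0.615). Xpo1, the main exporter of proteins with leucine-rich signals, stood at -0.03 ± 0.0306, and its 95% interval ran from 0.936-fold to 1.02-fold. Cse1l, which returns importin alpha to the cytoplasm, stood at -0.02 ± 0.0263, and Xpo6 and Xpo7 at -0.01 each.

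The Ran cycle was measured by 3 genes and none passed. Rangap1, which makes Ran hydrolyse its GTP at the cytoplasmic side, had 11.04, 11.09 and 11.13 in homozygous and 10.88, 11.02 and 11.06 in wild-type embryos. The groups overlapped slightly, and the difference was 0.08 ± 0.0333 (adjusted p = 0.273). Wild type 1 and 2, at 10.94 and 10.88, were the lowest arrays, and without them the difference was 0.04 ± 0.0248. Ran itself had 12.38, 12.43 and 12.45 in homozygous and 12.37, 12.45 and 12.50 in wild-type embryos (-0.02 ± 0.0257, adjusted p = 0.716), with a 95% interval of 0.949-fold to 1.02-fold. Ranbp1, which helps release Ran from receptors, stood at -0.04 ± 0.0313 (adjusted p = 0.510).

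Of the 3 genes outside the role lists, Nupr1, a stress-induced chromatin protein, had the second smallest p of the 47. It had 6.31, 6.44 and 6.53 in homozygous and 6.15, 6.26 and 6.34 in wild-type embryos (0.19 ± 0.0529, adjusted p = 0.131). The groups overlapped in homozygous 6, at 6.31, and wild type 3, at 6.34, and all 12 values lay below the array medians. Nupr2 stood at 0.02 ± 0.0323 and Nup50-ps1, the dimmest of the 47, at 0.03 ± 0.0644.

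**Figure D3:**
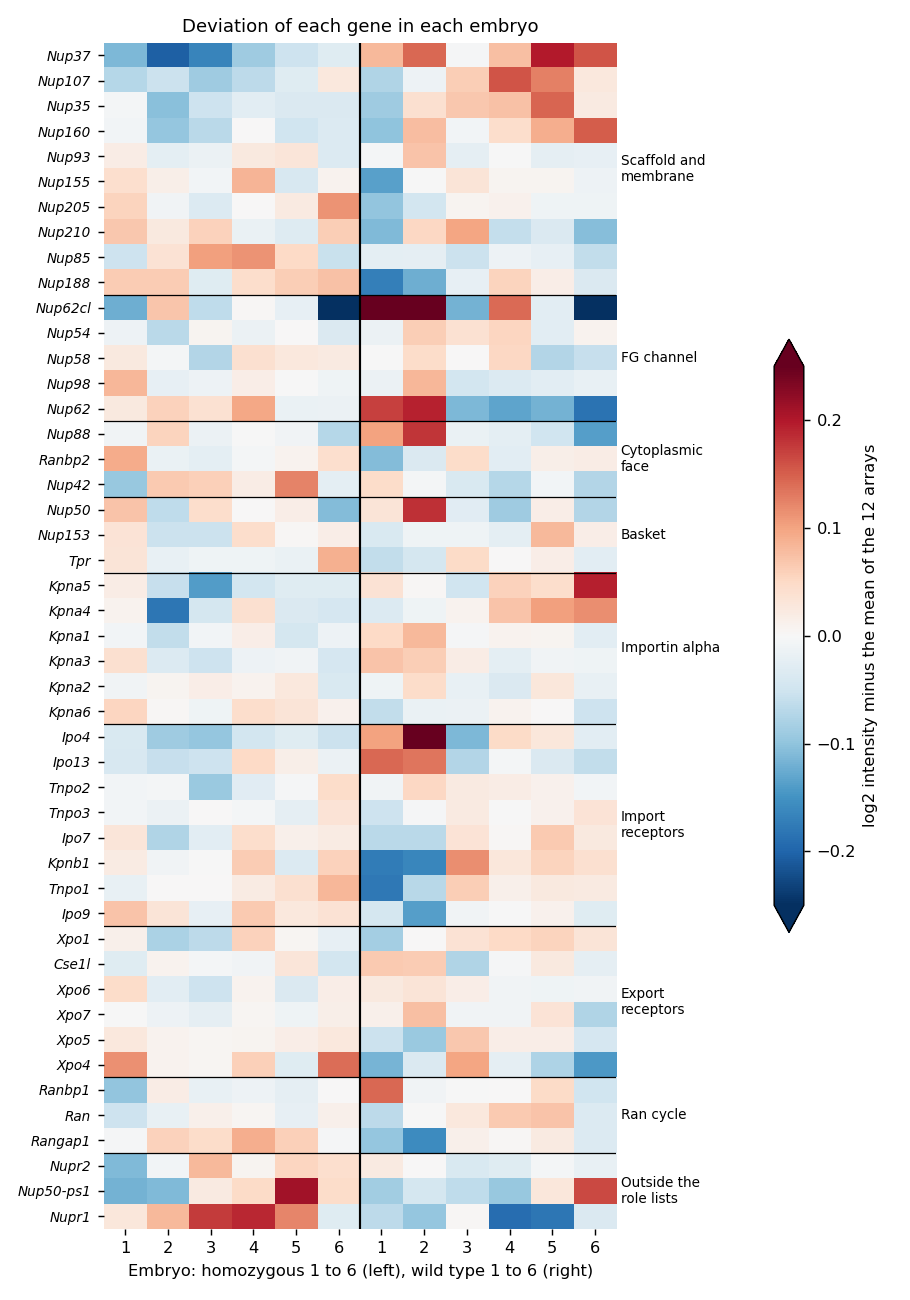
Log2 intensity of each gene minus its mean over the 12 arrays, by embryo (homozygous 1 to 6 left of the line, wild type 1 to 6 right), with colours capped at 0.25 in either direction. Nup37 is the 1 row with all homozygous cells below all wild-type cells, and the columns of wild type 1 and 2 hold many of the strongest colours in both directions.

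Wild type 1 and 2 set much of the spread in these genes. In 17 of the 47 (36.2%) both lay above or both below all 10 other arrays, against 23.2% of named genes. They were above in 8, among them Nup62, Nup88, Ipo13 and Cse1l, and below in 9, among them Kpnb1, Tnpo1, Nup188 and Rangap1. Nup88 had 11.74 and 11.81 in wild type 1 and 2, against 11.50 to 11.69 in the other arrays, and Ipo13 had 10.27 and 10.26, against 10.05 to 10.17. The labels give no reason for setting these arrays apart, so the fit without them is an alternative added once the values were known.

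Without them 3 of the 47 genes passed, and 37 of the 47 kept the sign of their difference. Nup37 remained lower. Nup35 stood at -0.12 ± 0.0273 (adjusted p = 0.0439 in limma), and Nup62 at 0.17 ± 0.0275 (adjusted p = 0.0122). The 6 homozygous values of Nup62, from 11.03 to 11.14, lay above the 4 remaining wild-type values, from 10.86 to 10.93. Wild type 1 and 2, at 11.21 and 11.24, lay above every homozygous value. The separation of Nup62 thus depends on which arrays were left out, and they were chosen once the values were known. Over all 29214 probe sets the same setting gave 582 calls, against 124 with all arrays. The share of named genes that passed in this setting is not given here. Among the other genes in which wild type 1 and 2 lay outside all 10 other arrays, the differences without them were 0.03 for Ipo13, 0.05 for Nup88, 0.01 for Cse1l and 0.02 for Nup62cl, all below 0 with all arrays. Tnpo1 stood at -0.01, on the other side of 0, and Kpna1 at -0.02, Kpna3 at -0.01, Nup205 at 0.025 and Xpo5, Ranbp2 and Tpr at 0.00. Nup62 did not pass without wild type 1 alone or 2 alone, nor in any other setting.

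**Figure D4:**
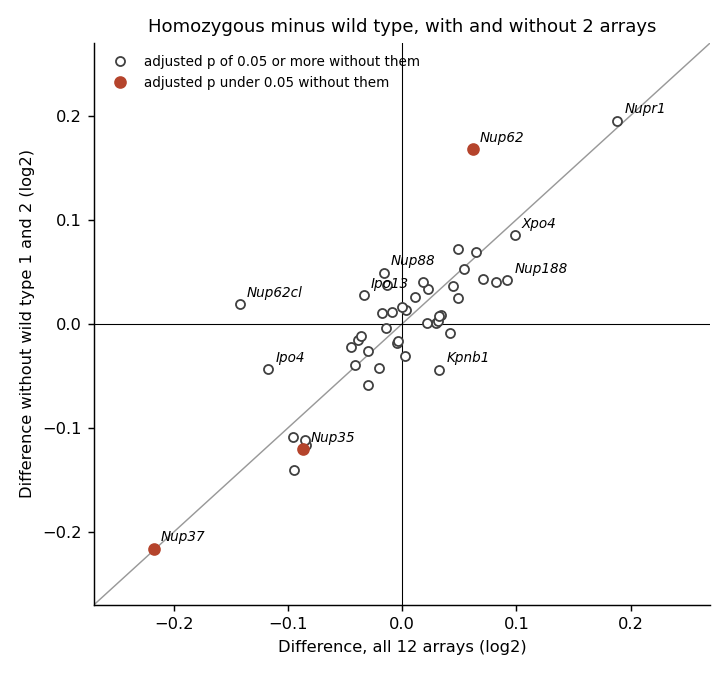
Difference of each of the 47 genes (homozygous minus wild type, log2) over all 12 arrays (x axis) and without wild type 1 and 2 (y axis), with the line of equality; filled points passed an adjusted p of 0.05 without them. Nup37 stays at -0.22, Nup62 moves to 0.17 and Nup35 to -0.12.

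A further list of 26 measured genes of the pore, of transport and of the nuclear lamina outside the symbol rule had no call, with 13 below 0 and 13 above and a median of 0.00. Pom121, which anchors the pore in the membrane, came closest. It had 10.73, 10.80 and 10.86 in homozygous and 10.55, 10.66 and 10.73 in wild-type embryos. Only the lowest homozygous and the highest wild-type array crossed, and the difference was 0.15 ± 0.0350 (adjusted p = 0.0781 in limma). Its adjusted p was 0.0457 with array weights, 0.0457 without wild type 1 and 2, 0.2076 with centred arrays, 0.130 with the replicate block and 0.138 with no intensity trend. With 1 array left out it ranged from 0.0442, without wild type 3, the 1 such fit that passed, to 0.1685. All 6 pore genes of this list lay above 0, as did 61.4% of named genes, and with centred arrays 3 lay above and 3 below. Sun1, an inner membrane protein that ties the lamina to the cytoskeleton, had groups that did not overlap, from 10.82 to 10.92 in homozygous and from 10.73 to 10.81 in wild-type embryos (0.07 ± 0.0255, adjusted p = 0.205), as in 2.2% of named genes. With centred arrays its difference was 0.0363. Xpot, the exporter of transfer RNA, stood at -0.08 ± 0.0288 (adjusted p = 0.225).

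Markers of cell types in and around the eminence were read beside these genes. Of 8 markers of postmitotic neurons 7 lay below 0, against 38.6% of named genes, and Nefl fell. Map2 lay above 0, at 0.09 ± 0.0263 (adjusted p = 0.131 in limma). Dcx, Tubb3, Stmn2 and Snap25 lay between -0.04 and -0.01, while Nefl stood at -0.42, Nefm at -0.21 and Gap43 at -0.19. The mean of the 8 was 11.36 to 11.51 in homozygous and 11.48 to 11.59 in wild-type embryos. The 9 measured markers of radial glia and cycling progenitors had a mean of 11.77 to 11.86 in homozygous and 11.71 to 11.87 in wild-type embryos, and none passed. Of these, 3 lay below 0 and 6 above, and Fabp7 stood at -0.41 ± 0.128 (adjusted p = 0.163). The 3 measured pallial markers averaged 9.03 in homozygous and 9.21 in wild-type embryos, and the 3 measured blood markers 10.62 and 10.80, with none past the threshold. Markers of endothelium averaged 8.49 and 8.46, of microglia 7.62 and 7.61 and of meninges 7.23 and 7.20, homozygous first. Of the 5 endothelial markers 1 lay below 0 and 4 above, and none passed. Cdh5 among them stood at 0.15 ± 0.0332 with groups that did not overlap (adjusted p = 0.0641). The part of these markers in the difference of Nup37 was not tested, and in whole tissue fewer cells of a type and less RNA per cell cannot be told apart.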

How the data were processed

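RNA of 12 rat embryos, 6 homozygous and 6 wild type, was read on Affymetrix Gene ST arrays. The values deposited by the authors were log2 intensities, 1 per probe set and array, made with Partek 6.4 and RMA per the submitters' processing notes, with no settings given in the sources used here. RMA commonly equalizes the arrays, so a change of all genes together could be missed, and short probes compress differences. Arrays have no depth, and their number limits the precision.

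A single symbol was annotated for 15310 of 29214 probe sets (14506 genes), several for 323 and none for 13581. All probe sets entered 1 fit of genotype in limma 3.58.1 (R 4.3.3; lmFit, then eBayes with trend), and 2-sided p-values were adjusted across the whole table (Benjamini-Hochberg, 0.05). They measure the spread between embryos, taken as independent. The embryos came from 3 dams, and the spread between litters could not be separated because the dam was not given. The fit was tested on simulated data. It called 4.0% of planted log2 changes of 0.1, 28.0% of 0.2, 68.0% of 0.3 and 86.0% of 0.5. Of its 100 calls 7 were false. A gene that did not pass can thus still differ. These rates are for a simulated table of 29214 probe sets and were not counted for the 47 genes. The SD within groups had a median of 0.0522 over the 47 and of 0.0990 over all probe sets. The rates need not hold for the real arrays, where calls ranged from 3 to 582 between alternative settings. The brightest probe set stood for a gene. RefSeq promoters (GRCr8) were matched by Entrez number. Plots used matplotlib 3.10.9 (Python 3.11.15).

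Genes and lists were chosen with earlier results of these data known. Full values go to Htt, to genes past the threshold, the 2 smallest p in each role list, the brightest, the dimmest, the 2 widest ranges, genes with 1 array far from its group and, outside the 47, the smallest p per list. Nup62 was added after its values were seen. Equal replicate numbers were not treated as pairs in the main fit. In 2 of 6 pairs the deviations correlated above 0.1, at 0.256 for replicate 3 and 0.12 for replicate 1. Whether the numbers pair embryos cannot be told from the labels. Alternatives were the replicate number as block, removal of dim probe sets, median centring, quantile normalization, no trend, array weights, means per gene and each array left out in turn. Added once the data had been seen were the fit without wild type 1 and 2 and a covariate, per array, of dim minus bright probe sets.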

Additional observations from a re-analysis of the deposited data

Results flagged for a closer look

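In 94 sets of 6 arrays (47 genes in homozygous and in wild-type embryos) 7 held 1 array far from the other 5 by Dixon's ratio, the gap to the nearest array over the whole range. Chance gives about 1 in 20, or 4.7. In homozygous embryos, Nup188 in homozygous 3 had 10.28 against 10.36 to 10.39 in the others (ratio 0.729). Ranbp1 in homozygous 1 had 12.11 against 12.19 to 12.23 (ratio 0.648), and Nup98 in homozygous 1 had 11.33 against 11.22 to 11.26 (ratio 0.639). In wild-type embryos 3 of the 4 were wild type 2: Nup98 had 11.33 against 11.20 to 11.23 (ratio 0.749), Nup93 had 11.31 against 11.21 to 11.23 (ratio 0.776) and Ipo9 had 11.77 against 11.87 to 11.92 (ratio 0.64). Nup155 in wild type 1 had 10.65 against 10.78 to 10.82 (ratio 0.734). Without the array named, the differences were 0.11 for Nup188, -0.03 for Ranbp1, 0.00 and 0.04 for Nup98 without homozygous 1 and wild type 2, 0.01 for Nup93, 0.05 for Ipo9 and 0.01 for Nup155.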

How the results depend on the processing

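The number of arrays and single libraries limited these calls. Nup37 was the 1 call among the 47 genes, and its difference kept its direction in all 21 alternative settings, but its adjusted p was 0.0773 with the replicate block, 0.0837 with no intensity trend and 0.0598 with the dim and bright covariate. In these 3 settings 0 of the 47 genes passed, and without wild type 1 and 2 together 3 passed. With the replicate number as a block, 18 probe sets passed over the whole array and Htt lost its call at a difference of 0.295. Calls over all probe sets were 302 with centred arrays, 3 with no intensity trend, 414 with array weights, 582 without wild type 1 and 2 and 33 with the covariate, against 124 as reported. Htt also lost its call with centred arrays (0.257), no trend (0.295) and the covariate (0.285). The median difference of the 47 moved to -0.0379 with centred arrays, and that of all probe sets from 0.0294 to -0.00847.

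Genes whose sign turned all had adjusted p above the threshold as reported. With centred arrays 11 of the 47 turned: Tpr (-0.0162), Ranbp2 (-0.00623), Xpo5 (-0.00805), Nupr2 (-0.0155), Kpna2 (-0.0344), Nup50-ps1 (-0.00573), Nup155 (-0.00393), Nup98 (-0.0194), Kpnb1 (-0.00535), Nup58 (-0.0266) and Ipo7 (-0.0354). Quantile normalization turned 3: Kpna2 (-0.012), Nup50-ps1 (-0.0245) and Ipo7 (-0.0028). Array weights turned 6: Nup50 (0.0101), Nup93 (0.0121), Nup88 (0.0193), Ipo13 (0.00342), Kpnb1 (-0.00798) and Ipo7 (-0.017). Without wild type 1 and 2, 10 turned: Nup50 (0.0374), Nup62cl (0.0186), Nup93 (0.0165), Nup88 (0.0492), Ipo13 (0.0274), Cse1l (0.0102), Xpo7 (0.0108), Kpnb1 (-0.044), Tnpo1 (-0.00922) and Ipo7 (-0.0306). The covariate turned 9: Nup50 (0.0253), Nup50-ps1 (-0.0309), Nup93 (0.0112), Nup88 (0.0327), Ipo13 (0.00406), Xpo6 (0.00315), Xpo7 (0.00876), Kpnb1 (-0.0115) and Ipo7 (-0.0148). The dim filter removed Nup50-ps1. The causes were not tested.

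With 1 array left out, 0 to 1 of the 47 genes and 4 to 200 probe sets passed, the median of the 47 ranged from -0.00494 to 0.0129 and Htt from 0.256 to 0.316. The sign turned without some array for 10 of the 47: Nup50 (-0.0319 to 0.0222), Nup93 (-0.00622 to 0.0144), Kpna2 (-0.00333 to 0.0129), Nup50-ps1 (-0.00679 to 0.0682), Ipo7 (-0.0108 to 0.0176), Nup153 (-0.0124 to 0.0124), Nup58 (-0.00236 to 0.0272), Nup88 (-0.0454 to 0.0178), Tnpo3 (-0.0149 to 0.00222) and Xpo7 (-0.0247 to 0.00539).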
